A study of Mus musculus with 240 samples.

Results

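The cytosolic ribosomal protein genes were followed in mouse brain oligodendrocyte precursor cells (OPCs), the dividing glial cells that give rise to oligodendrocytes and from which glioma can be started experimentally. Members were the protein-coding genes whose symbols follow the Rpl and Rps naming of the large (60S) and small (40S) ribosomal subunits, together with Rpsa, Rplp0, Rplp1 and Rplp2 and without the Rps6 kinases. They numbered 83 of the 34623 genes in the table: 46 encode 60S proteins, 31 encode 40S proteins and 6 are paralogues (Rpl3l, Rpl7l1, Rpl10l, Rpl22l1, Rpl39l and Rps27l). The rule used symbols and gene type only, and was set with earlier results of these data known.

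All cells were labelled tdTomato-positive and were collected by laser capture microdissection from cryosections, 10 µm thick for bulk samples and 8 µm thick for small ones. Bulk groups were WT (wild-type) at 12, 90 and 150 days after the start of tamoxifen (dpi; 5, 5 and 6 mice), CKO (Trp53-/- Nf1-/-) at 12 and 90 dpi (7 and 7 mice) and tumours of the CKO genotype at 150 dpi (7 mice), together 37 mice and 48 libraries. The small libraries were all of the CKO genotype: 112 libraries of 10 cells captured together, and 80 pool-and-split libraries made by dividing a pool of captured cells into aliquots. The Cre driver, the promoter of the reporter and the ages of the mice were not given in the sources used here. Total counts, in units of 1000000 (M), ran from 0.0937 to 23.2 M per bulk library, from 1.64 to 6.49 M per 10-cell library and from 1.91 to 5.16 M per pool-and-split library.

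A ribosome is built from ribosomal RNA, transcribed mainly by RNA polymerase I, and from 1 set of proteins made in the cytosol and imported into the nucleolus, where the 2 subunits are assembled. Most ribosomal protein mRNAs begin with a run of pyrimidines at their 5′ end, through which their translation responds to growth signals relayed by mTOR, and MYC raises the transcription of ribosomal genes. The proteins RPL5 and RPL11 also form, with 5S ribosomal RNA, a particle that binds MDM2 when assembly is disturbed, and so connects ribosome production to p53, one of the proteins deleted here.

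Ribosomal protein mRNAs have been copied back into the genome many times as processed pseudogenes, and this decides how well each member can be counted. In the reference, 79 of the 83 members had 1 or more other genes or pseudogenes with a closely matching transcript (95% identity or better along 50% or more of the shorter transcript), 595 such copies in all, with a median of 5 for each member and 59 for Rpl21. Rpl39l, Rpl3l and Rps27l were among those with none. Stretches from 3 members and the copy next to them show how close these are. They were read on the transcribed strand from GRCm38 with GENCODE M21 exons, and capitals mark bases that differ between a pair.
Rpl5, chr5:107901870-107901929, plus strand, exon 2: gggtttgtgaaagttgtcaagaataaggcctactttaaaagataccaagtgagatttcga
Gm15500, chr7:114706101-114706160, minus strand: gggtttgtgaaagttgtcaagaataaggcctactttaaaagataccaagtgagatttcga
Rpl3, chr15:80082500-80082559, minus strand, exon 2: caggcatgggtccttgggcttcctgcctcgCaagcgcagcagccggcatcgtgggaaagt
Rpl3-ps1, chrX:13202598-13202657, plus strand: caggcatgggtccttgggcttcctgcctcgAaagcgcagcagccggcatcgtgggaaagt
Rps2, chr17:24721012-24721071, plus strand, exon 3: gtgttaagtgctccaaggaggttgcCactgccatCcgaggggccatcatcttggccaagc
Rps2-ps13, chrX:52899006-52899065, plus strand: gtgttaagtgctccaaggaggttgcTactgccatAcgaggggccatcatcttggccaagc

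Over the coding sequence, Rpl5 (uL18, of the 5S particle) and Gm15500 were identical at 891 of 891 bases, so that no read from inside it can tell them apart. Rpl3 (uL3, near the peptidyl transferase centre) and Rpl3-ps1 were identical at 1207 of 1209 aligned bases, with the substitution C31A in the stretch shown, counted from the first base printed. Rps2 (uS5, at the mRNA entry of the 40S subunit) and Rps2-ps13 had 7 mismatches and 13 gap positions, of which C26T and C35A are in the stretch shown. Rpl10 and Rpl12 each had a copy identical at every coding base (642 and 495 bases), and Rpl21 one identical at 478 of 480.

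The promoters of the members were read from the RefSeq table (GRCm38.p6, 250 bases before to 50 bases after the start), in which 63 of the 83 members had an entry. A run of at least 8 C or T reaching to within 10 bases of the annotated start was found in 27 of these 63 (42.9%), against 13.7% of all 32851 promoters in the table. The word CCGGAAG on either strand, the core of the sites of ETS factors, was in 25 of 63 (39.7%) against 8.86% of all promoters, and TATAAA on either strand was in 6 of 63 (9.52%) against 13.6%. Windows from 60 bases before to 20 bases from the start are shown for 5 members whose changes are described further on, with the pyrimidine run in capitals where there is one.
Rplp2, chr7:141447591-141447670, plus strand: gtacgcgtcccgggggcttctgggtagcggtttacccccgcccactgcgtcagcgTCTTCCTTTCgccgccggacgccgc
Rps18, chr17:33955646-33955725, minus strand: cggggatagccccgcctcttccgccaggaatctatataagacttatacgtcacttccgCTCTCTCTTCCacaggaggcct
Rpl22l1, chr3:28805448-28805527, plus strand: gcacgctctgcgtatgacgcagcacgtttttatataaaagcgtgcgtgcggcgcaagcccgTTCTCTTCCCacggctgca
Rplp0, chr5:115559407-115559486, plus strand: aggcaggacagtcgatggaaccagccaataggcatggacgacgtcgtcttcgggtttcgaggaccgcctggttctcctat
Rpl22, chr4:152325666-152325745, plus strand: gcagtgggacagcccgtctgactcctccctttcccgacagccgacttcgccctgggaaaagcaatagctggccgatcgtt

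Rplp0 and Rpl22 had no such run within 10 bases of the annotated start, which says only that these letters are not there. A match is a description of the sequence, and an annotated start may differ from the one used in these cells.

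The 83 members together held 1.49% of all counts of the bulk libraries, 9.18% of those of the 10-cell libraries and 9.58% of those of the pool-and-split libraries. Their sequence copies held a further 0.463%, 2.06% and 2.15%. The bulk and small libraries differ in amplification (linear with T7 polymerase against PCR) and fragmentation (sheared cDNA against tagmentation), so that these shares cannot be set against each other as levels in cells. Per kilobase of exon, the highest bulk levels were those of Rpl41 (696 CPM per kb), which encodes the shortest ribosomal protein, Rps24 (651) and the stalk protein gene Rplp2 (533), where CPM is counts per 1000000 of the TMM-scaled total. In the 10-cell libraries Rplp1 (7849 CPM per kb), Rps24 (6020) and Rpl41 (4913) led. At the other end stood 3 paralogues with tissue-restricted expression elsewhere in the body. In the bulk animals Rpl10l was at most at 0.117 CPM and was listed at 0 in all animals but 1 tumour, Rpl39l reached at most 0.608 CPM and Rpl3l at most 0.847 CPM, so that these 3 failed the filter on low counts and 80 members were tested.

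How counts were divided between a member and its copies differed greatly among members. Copies held under 1% of the member and copy counts for 35 members in bulk and over 50% for 18. For Rpl12 the copies held 86.5% of these counts in bulk and 96.1% in 10-cell libraries, for Rpl10 69.4% and 89.1%, and for Rpl5 56.9% and 87.1%. Rpl3 differed most between the kinds of library: copies held 74.8% in bulk but 0.0687% in 10-cell and 0.116% in pool-and-split libraries. Rpl10a was the only other member that differed by over 50 percentage points (74.5% in bulk, 16.0% in 10-cell libraries). The expected counts were given by RSEM, which divides a read that fits several transcripts among them by estimate, and a member with an identical copy is therefore uncertain by itself.

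**Figure D1:**
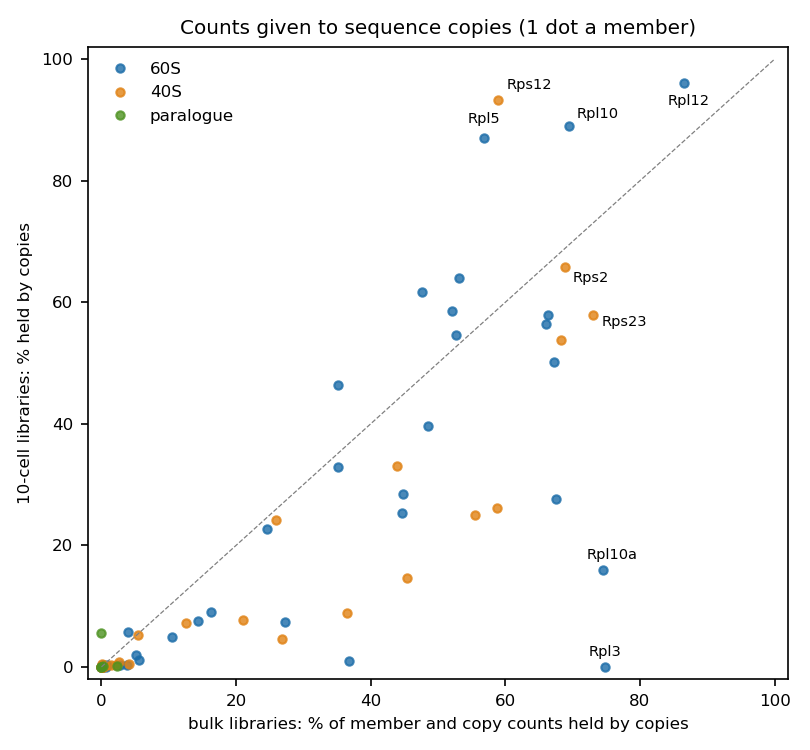
Share of a member's and its copies' counts that was given to the copies, in % of bulk counts (x axis) and of 10-cell counts (y axis), with 1 dot for each member coloured by subunit and the dashed line marking equal shares. Most members lie near the corner at 0 or along the line, and Rpl3 (74.8% against 0.0687%) and Rpl10a (74.5% against 16.0%) lie far below it.

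The labels were first checked against the deleted genes. Nf1 was at 176 to 216 CPM in the CKO animals and 261 to 357 CPM in the WT animals at 12 dpi, without overlap. At 90 dpi it was at 149.5 to 302 CPM in CKO and 274 to 343 CPM in WT animals, with the highest CKO animal inside the WT range, against its label. It was at 149 to 273 CPM in tumours against 252 to 355 CPM in WT at 150 dpi, with overlap. Trp53 was not lower in CKO animals (26.3 to 36.9 CPM against 23.1 to 44.2 CPM in WT at 12 dpi), and whether its counts come from the deleted part of the gene cannot be seen in gene-level values. Summed OPC markers were present in every group, at 2118 to 4326 CPM in WT at 150 dpi and 4973 to 13077 CPM in tumours, and neuronal markers were at 6813 to 10128 CPM in WT at 150 dpi and 218 to 1477 CPM in tumours. In such bulk samples fewer cells of a type and less RNA per cell cannot be told apart.

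The first question was how the members differ between tumours and WT cells of the same age. They held a larger share of the counts in most tumours. The share was 1.01 to 3.63% in the 7 tumours (median 1.72%, mean 1.98 ± 0.860% SD) and 0.537 to 1.67% in the 6 WT animals at 150 dpi (median 1.19%, mean 1.10 ± 0.459% SD). The ranges overlap, and 1 tumour, Tumor_21349, stood far above the others. With sequence copies included the means were 2.60% in tumours and 1.44% in WT.

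**Figure D2:**
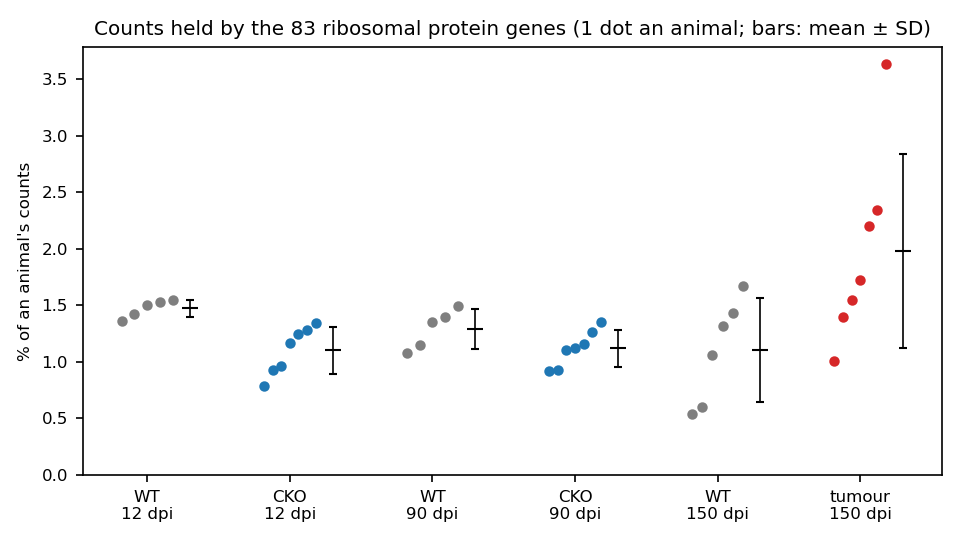
Counts held by the 83 ribosomal protein genes, in % of an animal's counts (y axis), in the 6 bulk groups, with 1 dot for each animal and the mean ± SD beside it. The CKO animals at 12 dpi (0.792 to 1.34%) lie below all WT animals of that time (1.36 to 1.55%), and the tumours reach from 1.01 to 3.63%.

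In the edgeR quasi-likelihood test over 16349 genes, 50 of the 80 tested members were higher in tumours than in WT at 150 dpi at an adjusted p under 0.05, 2 were lower and 28 did not pass. Over all genes 46.2% were called, 24.3% as higher and 21.9% as lower. The members' median log2 change was 0.76 against 0.06 over all genes tested, and 72 of the 80 had a change above 0, as 52.7% of all genes did. Scaling matters to this background: with library totals in place of TMM factors, 64.3% of all called genes were higher, against 52.6%. In that fit 59 members were called higher and 1 lower, and 7734 of 16349 genes were called over all. The called rises ran from 0.59 to 2.11 on the log2 scale. Both subunits took part: 25 of the 46 60S members rose and 1 fell (median log2 change 0.73), 23 of the 31 40S members rose and none fell (0.82), and of the 3 tested paralogues 2 rose and 1 fell. The 4 X-linked members in the 2 subunits (Rpl10, Rpl36a, Rpl39 and Rps4x) all rose. Rpl10 lay close to the threshold (adjusted p 0.0493 in edgeR), and its call was lost in 19 alternative settings.

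**Figure D3:**
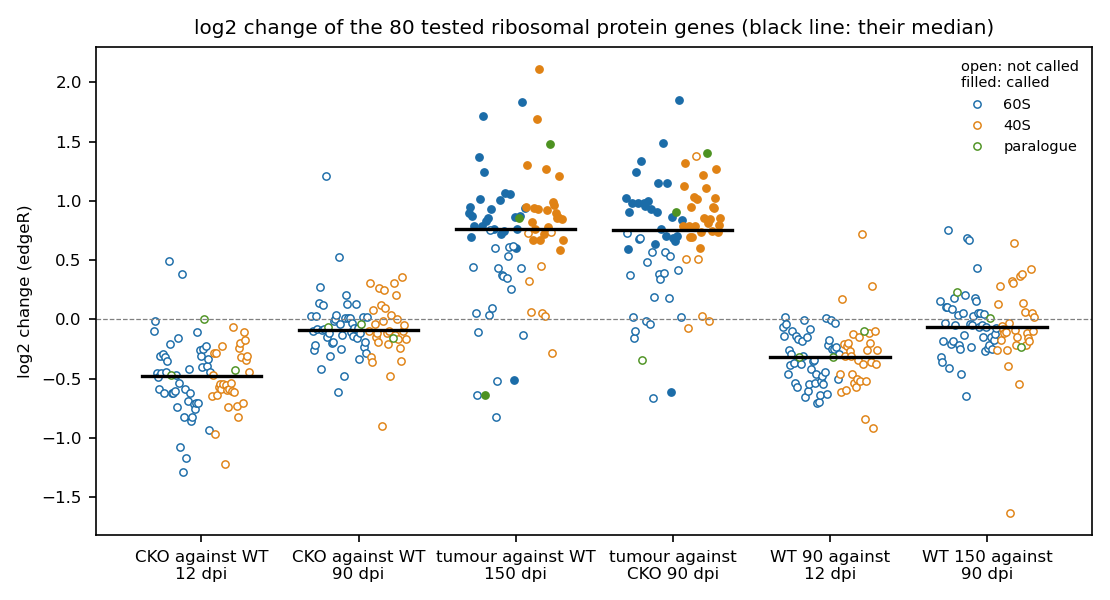
log2 change of the 80 tested members (y axis) in 6 comparisons of bulk groups, coloured by subunit, filled where the adjusted p is under 0.05, with the median as a black line. Both tumour comparisons lie mostly above 0 with medians of 0.76, and CKO against WT at 12 dpi lies mostly below 0 with a median of -0.48 and no filled dot.

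The genes of the P-stalk, the flexible arm of the 60S subunit that recruits elongation factors, differed in their mRNA counts. Rplp0, which anchors the stalk, was at 45.9, 51.4, 89.2, 89.8, 99.2 and 125 CPM in the WT animals at 150 dpi and at 127, 148, 241, 273, 277, 303 and 774 CPM in the tumours. Every tumour lay above every WT animal. It was 1 of 4 members without overlap in this direction (Rpl21 and Rps18 among the others). These were 5% of the 80 members, against 6.72% of all genes, so lack of overlap was no more frequent among members. The log2 change of Rplp0 was 1.83 (SE 0.26, adjusted p 3.75e-07). Rplp2, 1 of the acidic proteins bound to it, was at 104 to 302 CPM (median 205) in WT and 209 to 724 CPM (median 360) in tumours, an overlap at the lower end, and rose by 0.94 on the log2 scale (SE 0.25, adjusted p 0.00236). Rplp1, the partner of Rplp2, was at 81.6 to 404 CPM (median 275) in WT and 69.3 to 471 CPM (median 199.8) in tumours, with ranges that nearly coincide (log2 change -0.13, SE 0.32, adjusted p 0.775).

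The 2 proteins of the 5S particle went apart in the member counts. Rpl11 was at 62.7 to 193 CPM (median 149) in WT and 127 to 376 CPM (median 189) in tumours, a rise of 0.70 on the log2 scale (SE 0.22, adjusted p 0.0102). Rpl5 was at 115 to 271 CPM (median 203) in WT and 78.5 to 187 CPM (median 123) in tumours, and was 1 of the 2 called falls (log2 change -0.51, SE 0.20, adjusted p 0.0340). Its identical copy Gm15500 was at 119 to 212 CPM (median 148) in WT and at 267 to 936 CPM (median 380) in tumours, every tumour above every WT animal. Of the counts of Rpl5 and its copies together, the copies held 37.2 to 55.8% in WT and 70.0 to 83.3% in tumours. Summed, they were at 353 ± 87.7 CPM in WT (SD, n = 6) and 613 ± 284 CPM in tumours (SD, n = 7), and the direction turned to a rise of 0.82 (adjusted p 0.000612 in edgeR). The call of a fall also ended under RLE size factors (log2 change -0.36, adjusted p 0.119).

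**Figure D4:**
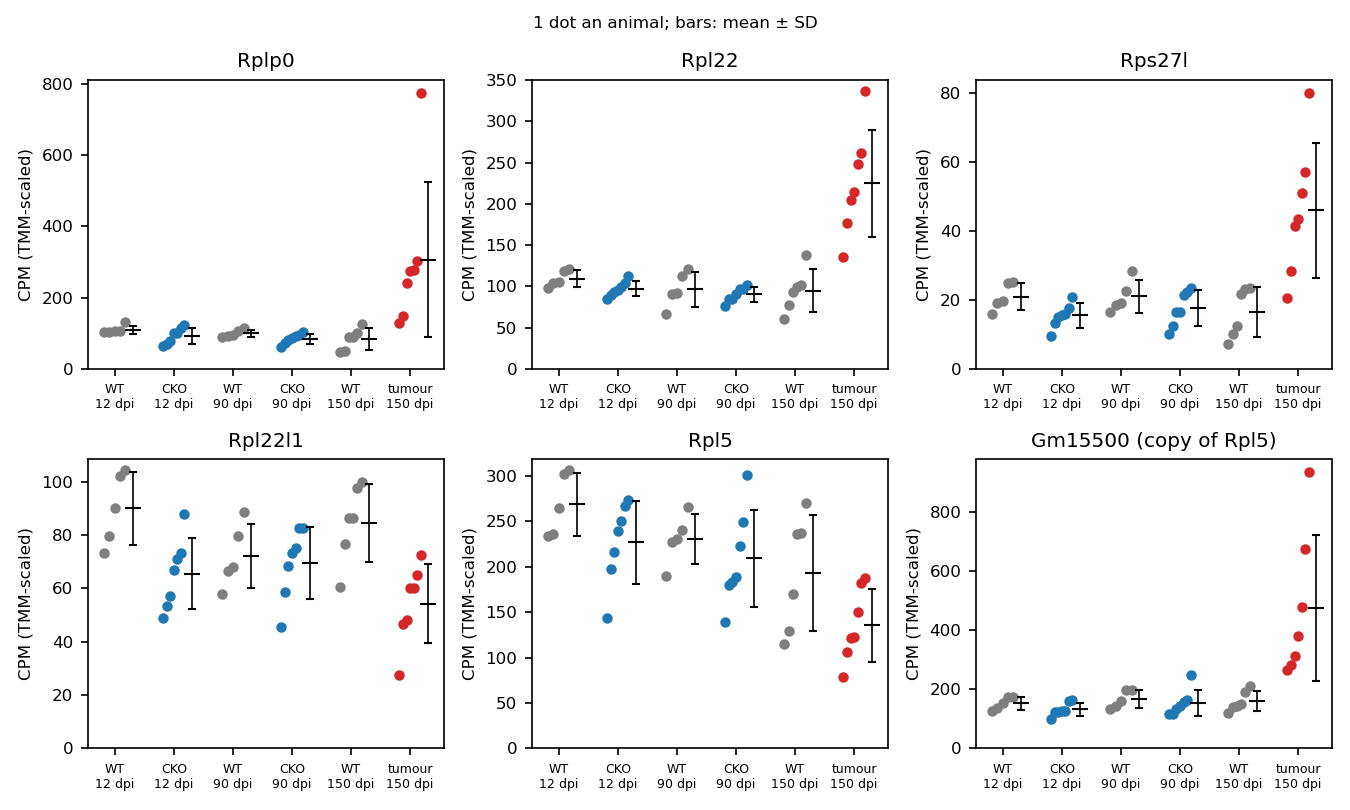
Level in CPM (y axis, TMM-scaled) of Rplp0, Rpl22, Rps27l, Rpl22l1 and Rpl5 and of Gm15500, the identical copy of Rpl5, in the 6 bulk groups, with 1 dot for each animal and the mean ± SD beside it. Tumours reach 774 CPM for Rplp0 and 936 CPM for Gm15500, and lie low for Rpl22l1 (27.5 to 72.7 CPM) and Rpl5 (78.5 to 187 CPM).

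Paralogues were compared with the genes they resemble. Rpl22 encodes eL22, a 60S protein without which cells can still make protein, and Rpl22l1 encodes its close relative eL22L1, whose mRNA eL22 is known to repress. Rpl22 was at 60.4 to 138 CPM (median 96.1) in WT and 135 to 336 CPM (median 214) in tumours, and rose by 1.24 (SE 0.16, adjusted p 6.19e-08). Rpl22l1 was at 60.4 to 100.2 CPM (median 86.3) in WT and 27.5 to 72.7 CPM (median 60.1) in tumours, and fell by 0.64 on the log2 scale (SE 0.18, adjusted p 0.00315). The ranges of both genes overlap slightly between the groups. Rps27l, a p53 target that encodes a relative of the 40S protein eS27, was at 7.25 to 23.5 CPM (median 17.1) in WT and 20.6 to 80.3 CPM (median 43.4) in tumours, and rose by 1.48 (SE 0.27, adjusted p 2.47e-05). Rps27 itself was at 70.8 to 368 CPM (median 107) in WT and 68.0 to 391 CPM (median 342) in tumours, with a wide overlap (log2 change 0.92, adjusted p 0.027). With its copies added its change was 0.63 and no longer passed (adjusted p 0.0524). Rpl7l1, a relative of Rpl7 that acts in 60S assembly, was at 10.8 to 18.7 CPM (median 14.4) in WT and 12.7 to 42.7 CPM (median 21.9) in tumours (0.86, SE 0.22, adjusted p 0.00148). Rpl7 had a log2 change of 0.60 with an adjusted p of 0.048, close to the threshold. Rpl3 had a log2 change of -0.82 (SE 0.36, adjusted p 0.0580) that shrank to 0.02 with its copies added.

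The largest rise by log2 change was that of Rps2, at 15.3 to 59.4 CPM (median 45.2) in WT and 11.6 to 299 CPM (median 217) in tumours, a change of 2.11 (SE 0.68, adjusted p 0.0106). At least 1 tumour lay below all WT animals, and with copies added the change was 1.09 (adjusted p 7.7e-05). Rpl21 (eL21) was at 31.2 to 113 CPM in WT and 149 to 383 CPM in tumours, without overlap (1.72, SE 0.36, adjusted p 0.000188), and at 0.63 with its copies added (adjusted p 0.00877). Rps18 (uS13, in the head of the 40S subunit) was at 12.8 to 94.7 CPM in WT and 101 to 279 CPM in tumours (1.69, SE 0.42, adjusted p 0.00118), also without overlap. Rpl18 (eL18) was at 41.8 to 117 CPM in WT and 84.3 to 423 CPM in tumours, with overlap (1.37, SE 0.25, adjusted p 2.10e-05). Rps6, the 40S protein phosphorylated by the S6 kinases, was at 76.5 to 182 CPM in WT and 77.4 to 284 CPM in tumours (0.86, SE 0.21, adjusted p 0.000917). Rpsa, a 40S protein also known as the laminin receptor, was at 78.8 to 220 CPM in WT and 81.5 to 470 CPM in tumours (0.67, SE 0.23, adjusted p 0.0150).

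**Figure D5:**
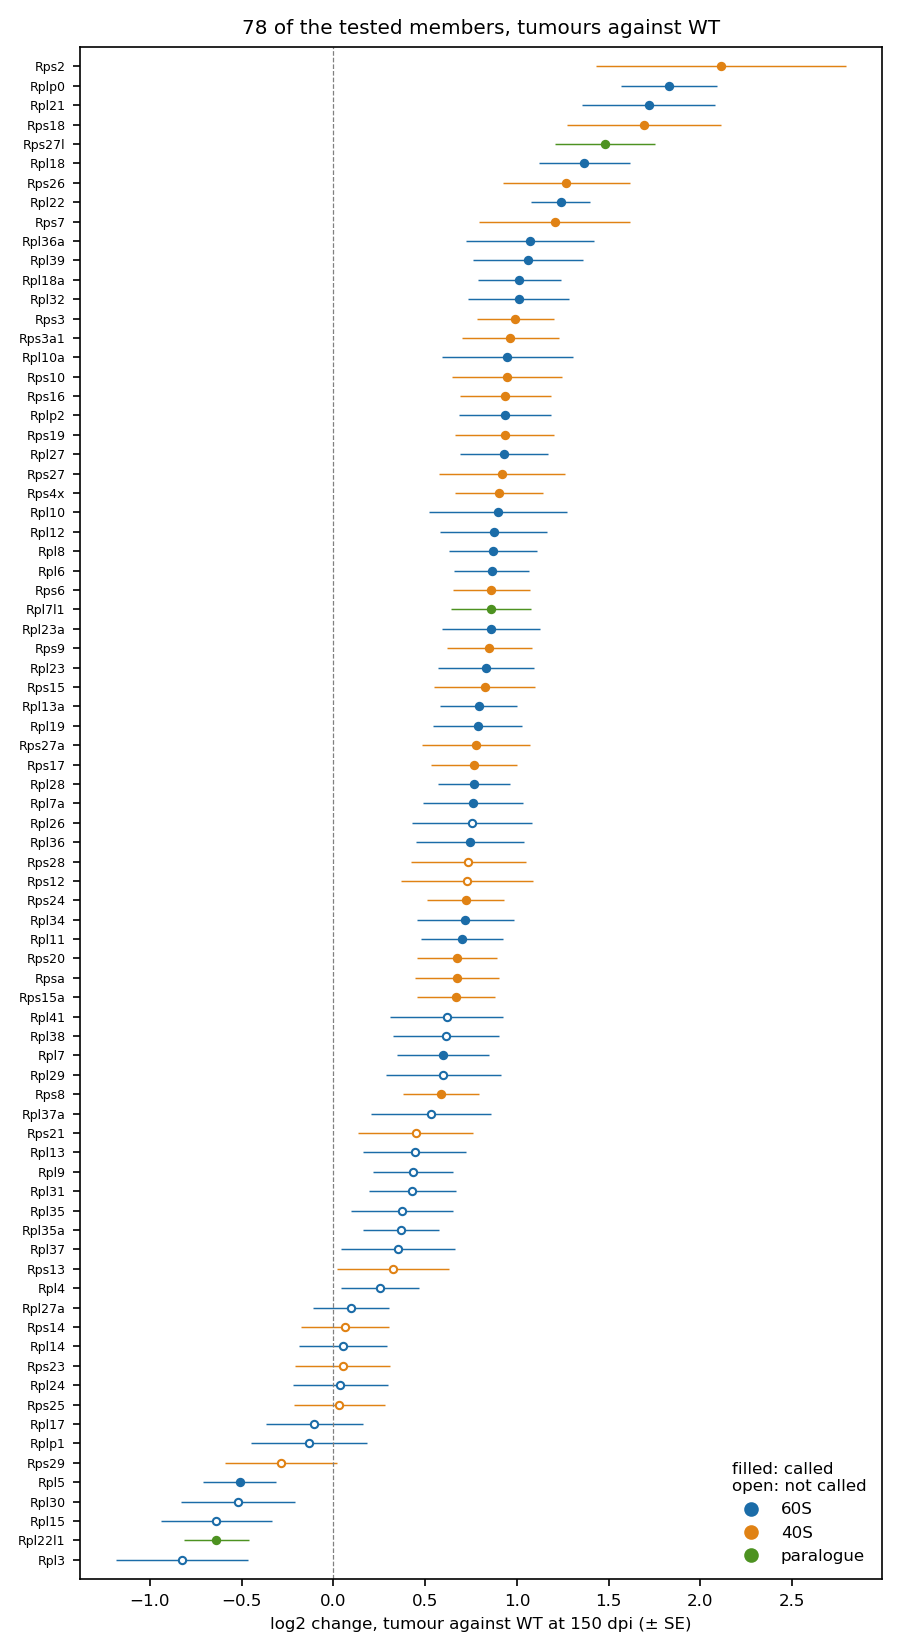
log2 change of 78 of the 80 tested members in tumours against WT at 150 dpi (x axis, ± SE), ordered by size, coloured by subunit and filled where the adjusted p is under 0.05. Changes run from -0.82 (Rpl3) to 2.11 (Rps2), and Rpl22l1 and Rpl5 are the filled dots below 0.

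Rises were found in each class of members by the share of joint counts held by copies, though nearly all members have copies. Of the 32 tested members whose copies held under 1% of the joint counts, 24 rose and none fell (median log2 change 0.84), of the 30 with 1 to 50% 16 rose and 1 fell (0.72), and of the 18 with over 50% 10 rose and 1 fell (0.74). The promoter classes also gave similar medians: 0.73 for the 27 tested members with a pyrimidine run and 0.83 for the 33 without, 0.77 for the 24 with CCGGAAG and 0.78 for the 36 without. The summed counts of 60S members were 1.53 ± 0.0784 times those of 40S members in WT at 150 dpi (SD, n = 6) and 1.36 ± 0.129 times in tumours (SD, n = 7), with overlapping ranges of 1.38 to 1.62 and 1.14 to 1.51. With copies included the ratios were 1.63 ± 0.10 and 1.54 ± 0.124.

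Other genes of ribosome production were taken from lists of known function, drawn up with earlier results of these data known. Their counts stand beside 24.3% of all genes called higher and 21.9% called lower. Of 31 tested ribosome assembly factors 18 rose and 1 fell (median log2 change 0.66), with Rrs1 (1.49) and Mybbp1a (1.40), both nucleolar proteins, the largest rises, and Nmd3, the adaptor that exports the 60S subunit, the fall (-0.37). Of 11 genes of RNA polymerase I and its factors 4 rose and none fell (median 0.46), led by its subunit genes Polr1e (1.37) and Polr1a (1.32). Of 14 translation factors whose mRNAs also begin with a pyrimidine run 9 rose and none fell (median 0.57), among them Pabpc1 (1.19), which binds poly(A) tails, and Eef1d (1.07), an elongation factor subunit. The mitochondrial ribosomal protein genes, which serve a separate ribosome, had 7 rises and 9 falls among 78 (median 0.11). In the signalling list 6 of 16 rose and 2 fell, with Myc at 3.47 to 5.61 CPM in WT and 68.1 to 213 CPM in tumours (log2 change 4.85, SE 0.31), while Mtor (-0.54) and Tsc1 (-0.70), which restrains mTOR, fell. A list of 6 genes held p53 and its ribosomal checkpoint together with Nf1, the other gene deleted here. In it Cdkn2a (7.26), whose product ARF restrains MDM2, and Trp53 (0.74) rose. Cdkn1a (-1.28), a p53 target that blocks the cell cycle, and Nf1 (-0.47), deleted by genotype, were among the 3 falls. Rack1 (1.12), which encodes a protein of the 40S subunit, lies outside the naming rule and rose too.

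Cell markers moved in the same comparison. Microglial markers were at 101 to 175 CPM in WT and 389 to 1257 CPM in tumours, oligodendrocyte markers at 1549 to 3132 and 391 to 1630 CPM, astrocyte markers at 2711 to 4025 and 1228 to 3609 CPM, and endothelial markers at 147 to 215 and 77.6 to 186 CPM. The summed neuronal and OPC markers are given above, and no marker list was at 0 in any group. Depth moved too, with medians of 24.0 M counts per tumour and 4.19 M per WT animal at 150 dpi. Their part in the changes of the members was not tested.

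Against CKO cells at 90 dpi, which carry the same genotype, the tumours gave a like count: 52 of 80 members rose and 1 fell, where 49.1% of all genes were called (26.4% higher, 22.6% lower). The median was again 0.76, against 0.12 over all genes. The 2 comparisons share the tumours, so each one's values are given for itself. Rplp0 was at 60.7 to 103 CPM in CKO at 90 dpi, below every tumour (log2 change 1.85, SE 0.25, adjusted p 8.06e-08). Rpl22 was the only other member without overlap (1.34, SE 0.15, adjusted p 3.72e-09). Such members were 2.5% of the 80, against 6.77% of all genes. Rps27l rose by 1.40 (SE 0.25), Rpl36a, an X-linked 60S gene, by 1.49 (SE 0.34, adjusted p 0.000408) and Rps12 by 1.32 (SE 0.35, adjusted p 0.00192). Rpl5 was the 1 fall (-0.62, SE 0.19, adjusted p 0.00792) and turned to 0.78 with its copies added. Rpl22l1 (-0.34, adjusted p 0.0922) and Rps2 (1.38, adjusted p 0.0656) did not pass here; with copies added Rps2 did, at 1.13 (adjusted p 1.97e-05).

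At 12 dpi, early after the deletion, no member was called between CKO and WT, and 3 genes (0.0183%) were called over all. The members nevertheless lay mostly on 1 side. Their share of the counts was 1.36 to 1.55% in the 5 WT animals (mean 1.47 ± 0.0759% SD) and 0.792 to 1.34% in the 7 CKO animals (mean 1.10 ± 0.210% SD), without overlap. The median log2 change was -0.48 against 0.03 over all genes, and 3 of 80 members were above 0 (Rpl21, Rpl3 and Rpl7l1), as 54.3% of all genes were. At an unadjusted p under 0.05, 35 members were lower and none higher, against 2.26% of all genes lower. In 18 members the highest CKO animal was still under the lowest WT animal, which 0.606% of all genes showed.

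The member nearest to the threshold was Rpl34 (eL34), at 36.6, 55.6, 60.9, 63.0 and 64.2 CPM in WT and 15.1 to 31.4 CPM (median 27.0) in CKO, a log2 change of -1.17 (SE 0.27, adjusted p 0.256). Rpl30 (eL30), at 103 to 228 CPM in WT and 60.2 to 99.4 CPM in CKO, had the largest difference (-1.29, SE 0.33, adjusted p 0.373). Rplp1 was at 320 to 488 CPM in WT and 148 to 286 CPM in CKO (-0.93). None of the 3 overlapped between the groups, and none passed the test over all genes. Copies held over 50% of the joint bulk counts of Rpl34 and of Rpl30, so that either is uncertain by itself. Medians were -0.45 for the 32 members with under 1% in copies, -0.55 for the 30 with 1 to 50% and -0.51 for the 18 with over 50%. The differences were not equal among related lists: the median was -0.22 for the translation factors, -0.10 for the mitochondrial ribosomal proteins, 0.09 for the assembly factors and -0.02 for RNA polymerase I, with no call in any. Summed markers overlapped between the groups, with neurons at 6996 to 7708 CPM in WT and 5771 to 8516 CPM in CKO and oligodendrocytes at 2531 to 4716 and 2022 to 3555 CPM. Depth differed, with medians of 3.47 M counts per WT animal and 16.0 M per CKO animal, and its part in the result was not tested.

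By 90 dpi no member was called between CKO and WT (8 genes, 0.0489%, over all), and the median was -0.09. Of the WT animals at 90 dpi, WT_21167 had 0.0936 M counts and the others 12.0 to 19.3 M. At an unadjusted p under 0.05 a single member passed, Rpl21, with a log2 change of 1.21, against 5.20% of all genes. Within the WT mice no member was called between 90 and 12 dpi (1 gene, 0.00612%, over all). There the median was -0.31, 5 of 80 members were above 0 (50.0% of all genes were), and 8 members were lower at an unadjusted p under 0.05, against 2.23% of all genes lower. Summed oligodendrocyte markers were at 2531 to 4716 CPM in WT at 12 dpi and 1564 to 1919 CPM at 90 dpi, without overlap, and median depth was 3.47 M and 12.9 M. Their part in the difference was not tested. In CKO mice between 90 and 12 dpi edgeR called 0 genes (0%), with 1 member and 4.26% of all genes at an unadjusted p under 0.05 and a member median of 0.13. The comparisons of CKO with WT at 12 dpi and of WT over time share the WT animals of 12 dpi. Between WT at 150 and 90 dpi no member was called (3 genes, 0.0183%), 3 members and 8.26% of all genes had an unadjusted p under 0.05, and the median was -0.07.

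Whether the difference between the genotypes had changed from 90 to 150 dpi was tested directly. All animals of the CKO genotype at 150 dpi were tumours, so that time and tumour state cannot be told apart in this test. The change of the effect was positive and called for 29 of 80 members and negative for none, where 30.0% of all genes were called (14.2% higher, 15.8% lower). Its median was 0.86 against 0.04 over all genes. The largest were Rps2 (3.01, SE 0.96, adjusted p 0.0155), Rplp0 (2.02, SE 0.37), Rps27l (1.64, SE 0.39), Rpl18 (1.45, SE 0.36) and Rps27 (1.40, SE 0.49, adjusted p 0.0283), and Rpl22 had the smallest adjusted p of those described (1.38, SE 0.23, adjusted p 1.3e-05). Rpl5 did not pass (-0.35, adjusted p 0.399). With sequence copies added, the change of Rps2 was 1.10 (adjusted p 0.00635) and that of Rps27 was 0.72 (adjusted p 0.168), so that the latter was no longer called. The copy Rps2-ps13 had a mean of 0.252 CPM in WT at 90 dpi and 72.9 CPM in WT at 150 dpi. The count of 29 moved with single animals and with the setting. It was 14 without WT_21591, 15 without WT_21592, 17 without WT_22185 and 42 without CKO_20647. It was 9 in a fit of only the groups compared (4060 of 16627 genes called) and 48 with library totals (5174 of 16349).

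Between male and female mice no member was called (8 genes, 0.0489%, over all). The median was -0.17, 7 of 80 members were above 0 (53.9% of all genes were), and 9 were lower in males at an unadjusted p under 0.05, against 2.48% of all genes lower.

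In the small libraries the members made up several times more of the counts than in bulk, and nearly all were found in nearly every library. A library had counts for 75 to 81 of the 83 members (median 80), and 67 members had counts in all 192 libraries. Of the 16 others, those found least often were the paralogues Rpl10l (2 libraries), Rpl39l (3), Rpl3l (44) and Rpl7l1 (163), and then Rpl10 (172) and Rps2 (174), which have close copies. The other 10 had counts in 176 to 191 libraries. The members held a median of 9.10% of the counts of a 10-cell library at 12 dpi (range 5.44 to 15.9%) and 8.99% at 90 dpi (5.48 to 14.1%). In pool-and-split libraries they held 8.83% (6.20 to 14.9%) and 10.3% (4.88 to 14.3%). These ranges overlap nearly whole.

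Over time the replicate was the set of libraries that share time, sex and number in the labels, with 4 sets for each time and kind. In the 10-cell sets edgeR called 0 of 14500 genes (0%) and 0 of 81 members between 90 and 12 dpi, with 20 members (19 lower and 1 higher) at an unadjusted p under 0.05 against 9.00% of all genes, and a member median of -0.24 against -0.12. In the pool-and-split sets it called 0 of 13408 genes (0%), with 13 members (9 lower and 4 higher) at an unadjusted p under 0.05 against 8.90% of all genes, and a median of -0.14 against -0.06. DESeq2 called 4 members in the former and 1 in the latter. How many genes it called over all is not given here, so these counts cannot be read as results about the members. Markers moved over the same time: in 10-cell libraries the medians of the summed markers were 582 CPM at 12 dpi and 1815 CPM at 90 dpi for oligodendrocytes, 100.2 and 467 CPM for microglia, 1822 and 3082 CPM for astrocytes, 525 and 817 CPM for OPCs, and 2850.0 and 2261 CPM for neurons. In pool-and-split libraries they were 1549 and 2354 CPM for oligodendrocytes, 314 and 337 CPM for microglia and 2659 and 1799 CPM for neurons. Their part in the changes over time was not tested.

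The members with the smallest p in the 10-cell sets were a pair of 60S genes, picked after their values were seen. Rpl29 (eL29) was at 1222, 1413, 1550 and 1863 CPM in the 10-cell sets at 12 dpi and 558, 610, 651 and 653 CPM at 90 dpi, without overlap (log2 change -1.29, SE 0.18, adjusted p 0.341). In the pool-and-split sets it was at 1009 to 2578 and 670 to 828.8 CPM (-0.98, adjusted p 0.522). Both kinds of set carry the same labels of time, sex and number, and whether they come from separate mice is not given. Rpl7a (eL8) was at 460 to 655 CPM in the 10-cell sets at 12 dpi and 185 to 261 CPM at 90 dpi (-1.42, SE 0.24, adjusted p 0.341), and at 203 to 649 and 96.9 to 163 CPM in the pool-and-split sets (-1.80, SE 0.42, adjusted p 0.522). Neither passed the test, and in the bulk CKO animals their log2 changes between the same times were -0.09 (SE 0.30) and -0.11 (SE 0.25).

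The pool-and-split libraries are meant to measure the spread that handling gives. More spread among 10-cell libraries would be a difference between cells only if handling adds the same spread to both kinds. Whether it does was not tested. Spread was compared on log2(CPM + 1) with limma around the median of each set. Each library gave a deviation of its own, with no term for the set. Libraries of the same set were thus counted as separate replicates, and these p-values do not measure the spread between sets. Over both times no member of 80 was called (4 of 8889 genes, 0.0450%), 44 of 80 had a larger spread in 10-cell libraries (55.2% of all genes did), and at 12 dpi no member was called either (2 genes, 0.0252%). At 90 dpi 1 member was called, where 0.639% of all genes were. This was Rpl10 (uL16, which completes the 60S subunit), whose SD was 1.85 in 10-cell and 3.28 in pool-and-split libraries, and lower in the 10-cell libraries of 4 of 4 sets (adjusted p 0.0133). It had counts in 100% of the 10-cell but 72.5% of the pool-and-split libraries at 90 dpi, and was no longer called once the counts of its copies were added. A further 18 members had a smaller spread in 10-cell libraries at an unadjusted p under 0.05 and none a larger one, against 8.73% of all genes with a smaller one.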

How the data were processed

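RNA of 48 bulk and 192 small libraries was measured. The deposited values are expected counts per gene, made by the authors with RSEM and Bowtie2 on GRCm38, per the submitters' processing notes; versions are not given in the sources used here. The authors pooled no replicates. Coordinates and copies come from GENCODE M21, in which 93.2% of the 34331 shared genes have the same position.

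Counts were rounded, and libraries of 1 animal summed (37 animals). Genes kept by filterByExpr were tested in R 4.3.3 with edgeR 4.0.16 (TMM factors, quasi-likelihood F test, 1 model of all animals with group and sex; biological coefficient of variation 0.418), and sets likewise for small libraries. A gene is called where its p, adjusted over the whole table by Benjamini and Hochberg, is under 0.05. Spread was compared with limma 3.58.1. Scripts were tested on simulated data. Alternatives are listed in the closing section; adding sequence copies was chosen after seeing the data. Depth was 0.0937 to 23.2 M counts per bulk library, so low members are imprecise in the shallowest.

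Members and lists were chosen with earlier results of these data known. Named members were the 5S particle, stalk, Rpsa, Rps6, paralogues with their partners, the 5 largest called changes per direction and comparison, those against the main direction, the levels at either end and those under the filter; others were picked after their values were seen. Where nothing says that sets come from separate mice, p-values of the sets over time measure only the spread between sets. Those of the spread comparison count each library as a replicate. Same-numbered sets did not deviate together (correlations of -0.035 to 0.025). Results for some genes are not reported here.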

Additional observations from a re-analysis of the deposited data

Results flagged for a closer look

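Single animals far from the rest of their group were looked for in 108 groups of member values; chance marks about 1 in 20 such groups. At 12 dpi, WT_22178 was low for Rpl11 (119.7 CPM) and high for Rps27 (169 CPM), WT_22056 was high for Rplp0 (130.4 CPM) and Rpsa (213 CPM), and WT_22180 was low for Rps6 (66.9 CPM). CKO_21725 was low for Rpsa (97.4 CPM) and high for Rpl10 (132 CPM). At 90 dpi WT_21167, the shallowest animal, was high for Rps6 (189.6 CPM). At 150 dpi WT_22064 was high for Rps6 (182 CPM) and Rps27 (368 CPM), and WT_21593 for Rpl10 (174 CPM). Tumor_21349 was high for Rplp0 (774 CPM), Rplp2 (724 CPM), Rpl7 (638 CPM) and Rps4x (1492 CPM).

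The effect of genotype, with tumours as the mutant animals at 150 dpi and CKO cells at 90 dpi, differed by a test of the difference itself for 29 members. The largest were Rps2 (3.01), Rplp0 (2.02), Rps27l (1.64), Rpl18 (1.45) and Rps27 (1.40) on the log2 scale. Time and tumour state cannot be told apart in it. With sequence copies added, Rps2 was at 1.10 and Rps27 at 0.72 (adjusted p 0.168 in edgeR).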

How the results depend on the processing

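Alternatives were DESeq2 1.42.0, RLE size factors, library totals alone, all genes kept, only genes with a mean of 10 CPM or more, a model without sex, 1 library per animal (its deepest), a fit of only the groups being compared, pseudogenes named for a member or all sequence copies added to it, and each animal or set left out. A further setting, TMM factors computed without the members, was run and is counted among the settings, but its own counts are not listed. Tumours against WT at 150 dpi gave 50 to 60 called members under the listed alternatives. Exceptions were the compared groups alone (34 members, 5394 of 15411 genes) and leaving out an animal (42 without WT_21592, to 55). Tumours against CKO at 90 dpi gave 38 to 62 over all settings. When an animal was left out they gave 40 (without Tumor_21349) to 60. The change of the genotype effect was called for 46 members under DESeq2 (5516 of 28074 genes over all) and 44 under RLE (5117 of 16349). It was called for 48 with library totals (5174 of 16349) and 44 at a mean of 10 CPM or more (3878 of 10362). With the compared groups alone it was called for 9 (4060 of 16627), and with an animal left out for 14 to 42. CKO against WT at 12 dpi gave 1 member call under DESeq2, where 18 of 28074 genes were called over all. It gave 9 with the compared groups alone, where 90 of 14668 genes were called. WT 90 against 12 dpi gave 12 with the compared groups alone, where 285 of 14939 genes were called. The 10-cell sets gave 4 and the pool-and-split sets 1 under DESeq2, with no count over all genes given here. Leaving out an animal or set gave 0 to 0 calls in the other comparisons of groups and sets and in the spread over both times and at 12 dpi, and 0 (without 90_male_1) to 1 in the spread at 90 dpi. Deviations around the mean gave 2 calls of spread over both times, 2 at 12 dpi and 13 at 90 dpi. For these too no count over all genes is given here. A pseudocount of 5 and either way of adding pseudogenes or copies gave 0 at 90 dpi.

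Scaling moved the median of all genes by over 0.1 in both tumour comparisons and in the change of the genotype effect, and by -0.12 with library totals in WT at 150 against 90 dpi. For tumours against WT it went from 0.06 to 0.22 under RLE and 0.26 with library totals, and the share of higher among all called genes from 52.6% to 62.1% and 64.3%. For the change of the genotype effect that share went from 47.2% to 57.3% under RLE and 62.4% with library totals, and for tumours against CKO from 53.8% to 64.3% under DESeq2. Rpl5 turned from a fall to a rise with sequence copies added, at 0.82 against WT and 0.78 against CKO. The Rpl5 call against WT was lost in 13 settings, and the cause was not tested.

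The share of counts held by members and named pseudogenes was 1.69% in WT at 12 dpi, 1.48% in WT at 90 dpi and 1.30% in CKO at 90 dpi; with sequence copies it was 1.91%, 1.67% and 1.46%, and 1.45% in CKO at 12 dpi. Leaving out an animal moved the share to 1.46 to 1.5% in WT and 1.06 to 1.16% in CKO at 12 dpi, 1.24 to 1.35% and 1.08 to 1.16% at 90 dpi, 0.990 to 1.22% in WT at 150 dpi and 1.70 to 2.14% in tumours.

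With the number of a set as a replicate block, 0 members were called in the 10-cell sets and 0 in the pool-and-split sets, as without it. The numbers are shared labels only: 1 of 8 sets correlated best with its own number. The bulk groups share no replicate numbers.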
